A study of Mus musculus with 20 samples.

Results

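The genes described here are 7 transcription factor genes of the myeloid lineages: the C/EBP family members Cebpa, Cebpb, Cebpd, Cebpe and Cebpg, and Gfi1 and Irf8. They are given by name, with no threshold on their values, and all 7 were found among the 24315 genes of each deposited table. RNA was measured in 20 libraries from 10 samples of C57BL/6 mice, with an LSK library (Lin-Sca1+Kit+ bone marrow cells, which hold stem and early progenitor cells) and a MEP library (Lin-Sca1-Kit+CD34-FcγRII/III lo/- cells, megakaryocyte-erythroid progenitors) from each. There were 3 WT, 3 Dnmt3a-/-, 2 Bcor-/- and 2 Bcor-/-Dnmt3a-/- samples per cell type. The knockouts carried Mx1-Cre, an interferon-inducible Cre that is active in blood cells and in other tissues, induced with pIpC, and loss of Bcor meant deletion of its exons 8 to 10. Dnmt3a encodes a DNA methyltransferase, and Bcor encodes the BCL6 corepressor, a subunit of a variant Polycomb complex. The study describes its wild-type controls as mice with untargeted genes. In the deposited library names, however, WT and Dnmt3a-/- differ only by WT against Cre and the replicate number. Which floxed alleles the WT mice carried is therefore not settled here. Bcor-/- replicate 1 was a pool of 2 mice, and the labels give no age or disease stage. The study describes the Bcor-/-Dnmt3a-/- mice used for RNA sequencing as leukemic, so that stage and genotype cannot be told apart in their comparisons. The labels name the mouse of each sample, so that replicates are separate animals apart from that pool.

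C/EBP proteins are basic leucine zipper factors that bind DNA as dimers. C/EBPα drives commitment of progenitors to the granulocyte and monocyte lineages, C/EBPβ takes over part of this role in emergency granulopoiesis, C/EBPδ is an inducible member of the acute-phase response, and C/EBPε acts later, in the granulocyte series. C/EBPγ has no strong activation domain and works as a dimer partner, also of ATF4. GFI1 is a zinc finger repressor needed for neutrophil development, and IRF8 directs monocyte and dendritic cell development and restrains granulocyte production. Megakaryocytic and erythroid cells normally carry little of the granulocytic factors.

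RefSeq windows of the 250 bases before the start were matched for 5 of the 7 genes on GRCm38.p6, and 3 are shown because 2 of these genes moved together in Bcor-/- LSK cells while the neighbour of one of them did not. Capitals mark CpG dinucleotides, the sites that DNMT3A can methylate. The Cebpa window lies at chr7:35119043-35119292 on the plus strand, the Cebpg window at chr7:35056567-35056816 on the minus strand and the window of the first listed Gfi1 start at chr5:107725806-107726055 on the minus strand.
Cebpa: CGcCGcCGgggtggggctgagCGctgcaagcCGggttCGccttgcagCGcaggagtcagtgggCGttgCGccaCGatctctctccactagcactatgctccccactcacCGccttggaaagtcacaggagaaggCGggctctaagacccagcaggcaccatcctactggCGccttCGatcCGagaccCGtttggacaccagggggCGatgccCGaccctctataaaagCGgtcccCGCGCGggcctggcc
Cebpg: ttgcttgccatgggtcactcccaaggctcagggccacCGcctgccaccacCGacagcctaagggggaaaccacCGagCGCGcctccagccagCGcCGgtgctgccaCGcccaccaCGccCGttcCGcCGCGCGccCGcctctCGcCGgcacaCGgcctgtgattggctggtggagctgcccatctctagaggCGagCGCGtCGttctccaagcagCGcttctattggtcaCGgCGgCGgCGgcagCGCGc
Gfi1: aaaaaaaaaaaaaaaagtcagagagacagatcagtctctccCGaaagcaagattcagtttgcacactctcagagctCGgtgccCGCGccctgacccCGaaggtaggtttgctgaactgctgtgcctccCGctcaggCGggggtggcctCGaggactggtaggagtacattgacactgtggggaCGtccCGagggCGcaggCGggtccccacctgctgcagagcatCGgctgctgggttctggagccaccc

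The Cebpa window holds 22 CpGs, the Cebpg window 29 and the Gfi1 window 13, against a median of 6 over 32851 such windows. At least as many CpGs as in Cebpa were found in 14.8% of all windows, as many as in Cebpg in 6.78% and as many as in Gfi1 in 31.5%. The Cebpb window, with 41, was matched or exceeded by 1.09% of all windows, and the first Irf8 window, with 29, by 6.78%. The windows of the second listed starts held fewer, 9 for Gfi1 and 8 for Irf8, matched or exceeded by 40.3% and 43% of all windows. Both strands were searched for 4 motifs. The C/EBP motif, TTGCNNAA, occurs in 9.56% of all windows. The GATA motif was searched as AGATAA, which occurs in 9.99% of them, and the motif of PU.1 as GAGGAAG, which occurs in 10.6%. The BCL6 motif, TTCCTNGAA, occurs in 1.31%. Among the 3 windows shown, the only match was TTGCNNAA in Gfi1, beginning 143 bases before the start, and it overlapped no other match. The windows of the second Gfi1 and Irf8 starts held no match. Cebpd and Cebpe were not matched. Methylation was not analysed here, so that these windows give sequence context only.

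The values are FPKM, which are scaled for transcript length, and read totals are not given, so that the depth is unknown. Steps between the lowest FPKM put the relative depth of the libraries at 0.790 to 1.32 times WT replicate 1 in LSK cells and at up to 1.61 times in MEPs. The 2 Bcor-/-Dnmt3a-/- libraries correlated with each other at 0.849 in LSK cells and 0.815 in MEPs over log2 values, where libraries of the other genotypes reached at least 0.971. WT LSK replicate 2 stood apart in late granule genes, with a summed 10546 FPKM against 2136 and 1940 in the other two. Bcor was at 29.5 to 32.4 FPKM in WT LSK cells, at 22.4 and 23.2 in Bcor-/- and at 24.0 and 37.4 in Bcor-/-Dnmt3a-/-, and Dnmt3a was at 16.1 to 19.8 in WT, 11.3 to 16.9 in Dnmt3a-/- and 10.4 and 10.9 in Bcor-/-Dnmt3a-/-. In MEPs Bcor was at 21.3 to 26.9 FPKM in WT, with Bcor-/- libraries at 19.5 and 22.4 and Bcor-/-Dnmt3a-/- libraries at 19.6 and 26.7, and Dnmt3a at 5.49 to 6.64 in WT, 2.56 to 5.40 in Dnmt3a-/- and 6.85 and 3.44 in Bcor-/-Dnmt3a-/-, where replicate 1 lay above every WT library. Gene-level values include undeleted exons, so that they do not check the deletions. The study describes the mRNA left after the Bcor deletion as very unstable, and its PCR detected none in LSK cells of Bcor-/- mice. No such loss was seen in the gene-level Bcor values, and at 37.4 FPKM Bcor-/-Dnmt3a-/- LSK replicate 2 lay above every WT library. The reason was not tested. In WT, Ly6a, which encodes Sca-1, was at 59.8 to 70.7 FPKM in LSK cells and at 0 to 0.790 in MEPs. In Bcor-/-Dnmt3a-/- LSK cells Cd34 was at 5.87 and 37.3 FPKM against 548 to 650 in WT, and Kit at 47.7 and 19.4 against 148 to 174. Of the 10 gate and stem cell markers, 8 were lower there, and the exceptions were Ly6a, at 63.5 and 220.2 FPKM against 59.8 to 70.7, and Slamf1, at 3.69 and 2.14 against 2.43 to 3.94, which did not pass.

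In WT LSK cells Irf8 had the highest FPKM of the 7 genes, 44.7 ± 15.1 (SD, n = 3), followed by Gfi1 at 22.0 ± 3.76, Cebpa at 16.1 ± 3.70, Cebpg at 15.5 ± 2.39, Cebpb at 11.2 ± 0.637, Cebpe at 6.94 ± 4.13 and Cebpd at 1.79 ± 0.863. Gfi1 and Cebpa, Cebpa and Cebpg, and Cebpb and Cebpe overlapped between their 3 libraries, and the other neighbours in this order did not. In WT MEPs Irf8 again led at 23.5 ± 6.38 FPKM, with Cebpg at 12.5 ± 3.03. Cebpa was at 1.56 ± 0.852, Gfi1 at 1.27 ± 0.300 and Cebpe at 0.742 ± 0.701 in MEPs, and these 3 overlapped with one another. The LSK and MEP tables were deposited separately, so that these levels stand side by side with no test between them.

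**Figure D1:**
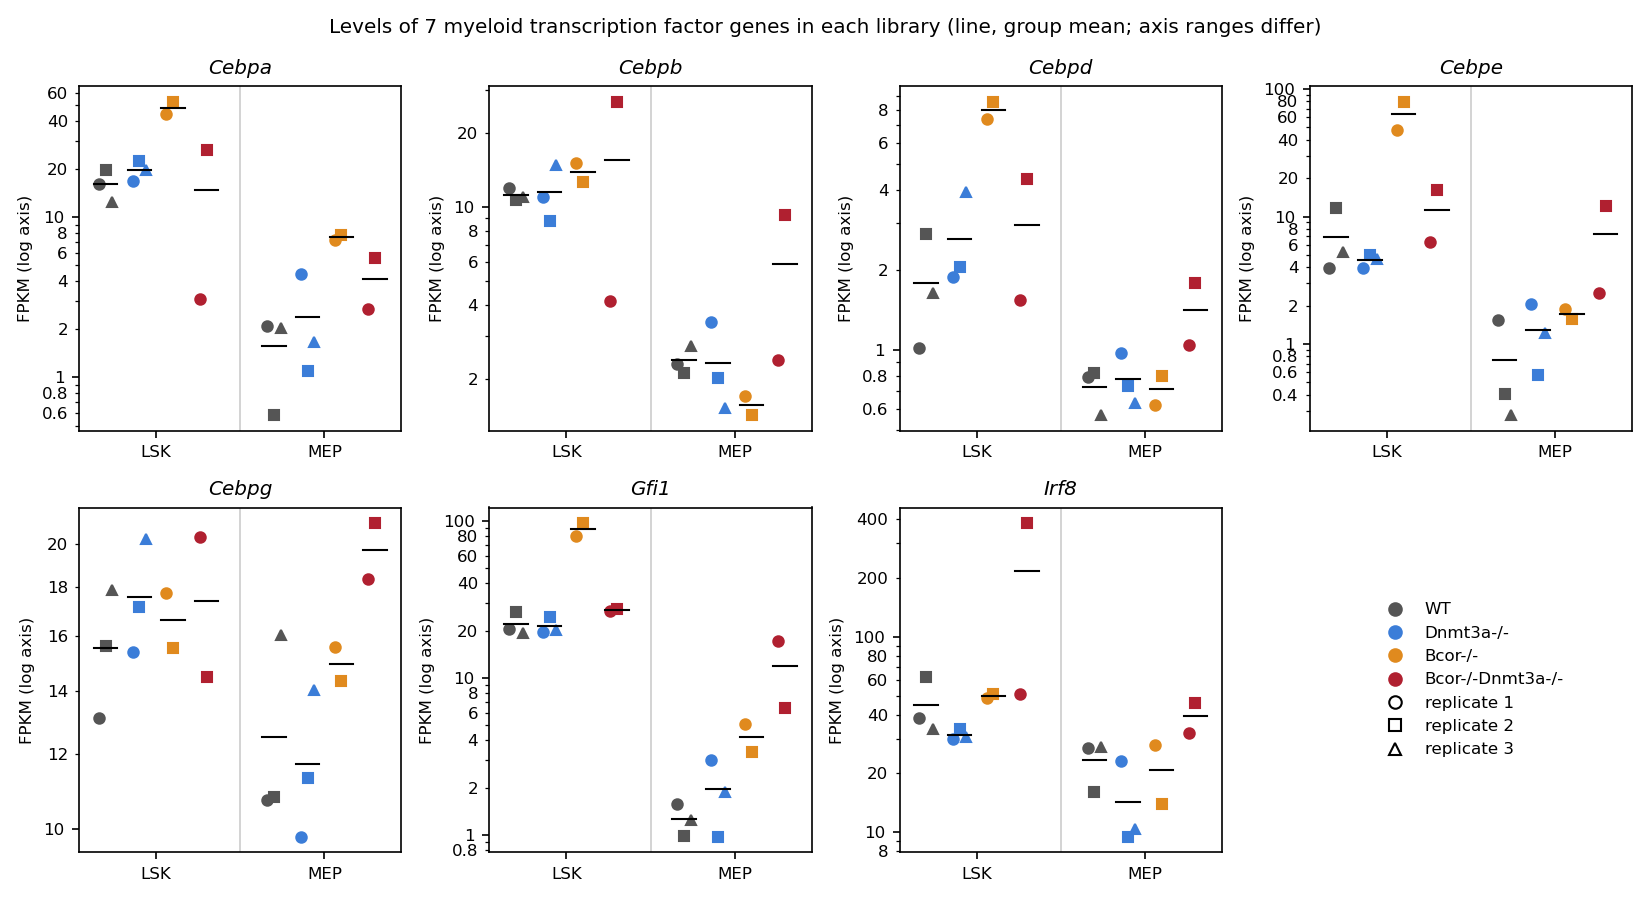
FPKM of the 7 genes in every library on log axes whose ranges differ between panels, with LSK cells and MEPs side by side; colours are genotypes, symbols are replicates and lines are group means. Gfi1 and Cebpe stand highest in the 2 Bcor-/- LSK libraries, and Irf8 stands highest in 1 Bcor-/-Dnmt3a-/- LSK library, at 380.4 FPKM.

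The comparison of Bcor-/- with WT LSK cells asks what loss of Bcor alone does to these factors. The 4 genes Cebpe, Gfi1, Cebpd and Cebpa, were higher, by 2.93- to 8.59-fold, while Cebpb, Cebpg and Irf8 did not pass. A gene was called where limma gave an unadjusted p under 0.05 and the fold change exceeded 1.5 on the log2(FPKM + 1) scale, which are the thresholds of the study. By that rule 4 of the 7 genes were called, all higher, and 3 of these also had an adjusted p under 0.05. Over all 11952 genes tested, 13.2% were called, 7.20% higher and 6.03% lower, and 5.77% had an adjusted p under 0.05 with that fold. In bulk RNA, fewer cells of a type and less RNA per cell cannot be told apart.

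Cebpe, the granulocytic family member, was at 3.94, 11.6 and 5.23 FPKM in the WT LSK libraries and at 47.7 and 79.7 in the Bcor-/- libraries. Both Bcor-/- libraries lay above every WT library, also above WT replicate 2, which stood apart in late granule genes. The log2 fold change was 3.10 (SE 0.45, 95% CI 2.09 to 4.11, adjusted p = 0.013). Gfi1, which encodes a repressor needed for neutrophil development, was at 20.3, 26.3 and 19.3 FPKM in WT and at 80.4 and 96.5 in Bcor-/-. These groups did not overlap either, and the log2 fold change of Gfi1 was 1.97 (SE 0.16, 95% CI 1.61 to 2.33, adjusted p = 0.0045). Cebpa was at 16.1, 19.8 and 12.4 FPKM in WT and at 44.1 and 52.7 in Bcor-/-. Its libraries did not overlap, but its call rested on the unadjusted p of 0.034, with a log2 fold change of 1.55 (SE 0.62, 95% CI 0.15 to 2.95) and an adjusted p of 0.16. That call of Cebpa was lost without WT replicate 1, WT replicate 3, Bcor-/- replicate 1 or Bcor-/- replicate 2. Over all fits without a single library its log2 fold change ran from 1.38 to 1.70. Cebpd, the inducible member, was at 1.01, 2.72 and 1.63 FPKM in WT and at 7.42 and 8.58 in Bcor-/-, the lowest level of the 4 genes. Its groups did not overlap, and its log2 fold change was 1.73 (SE 0.39, adjusted p = 0.034).

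Cebpb was at 11.9, 10.7 and 10.98 FPKM in WT and at 15.1 and 12.6 in Bcor-/- LSK cells, so that its groups did not overlap although its log2 fold change was 0.28 (95% CI -0.98 to 1.54). Cebpg, the partner without a strong activation domain, was at 13.1, 15.6 and 17.9 FPKM in WT and at 17.7 and 15.5 in Bcor-/-. The Cebpg groups overlapped, and the interval of its log2 fold change ran from -0.32 to 0.53. Irf8 was at 38.3, 62.0 and 33.8 FPKM in WT and at 48.6 and 51.1 in Bcor-/-, within the WT range, with an interval from -1.28 to 1.68. Groups that did not overlap were found for 5 of the 7 genes and for 54.0% of all genes tested. With 2 libraries against 3, a two-sided exact permutation test of a single gene cannot go below 0.1.

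Because the family members did not rise by the same factor, its makeup shifted. The summed FPKM of the 5 C/EBP genes was 46.1, 60.4 and 48.1 in WT LSK cells and 132.1 and 169.1 in Bcor-/-. Cebpe made up 8.55%, 19.3% and 10.9% of that sum in WT and 36.1% and 47.1% in Bcor-/-. The share of Cebpa was 34.96%, 32.7% and 25.7% in WT and 33.4% and 31.1% in Bcor-/-, and that of Cebpg fell from 28.4%, 25.8% and 37.2% to 13.4% and 9.18%. These shares are descriptions of each library with no test.

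**Figure D2:**
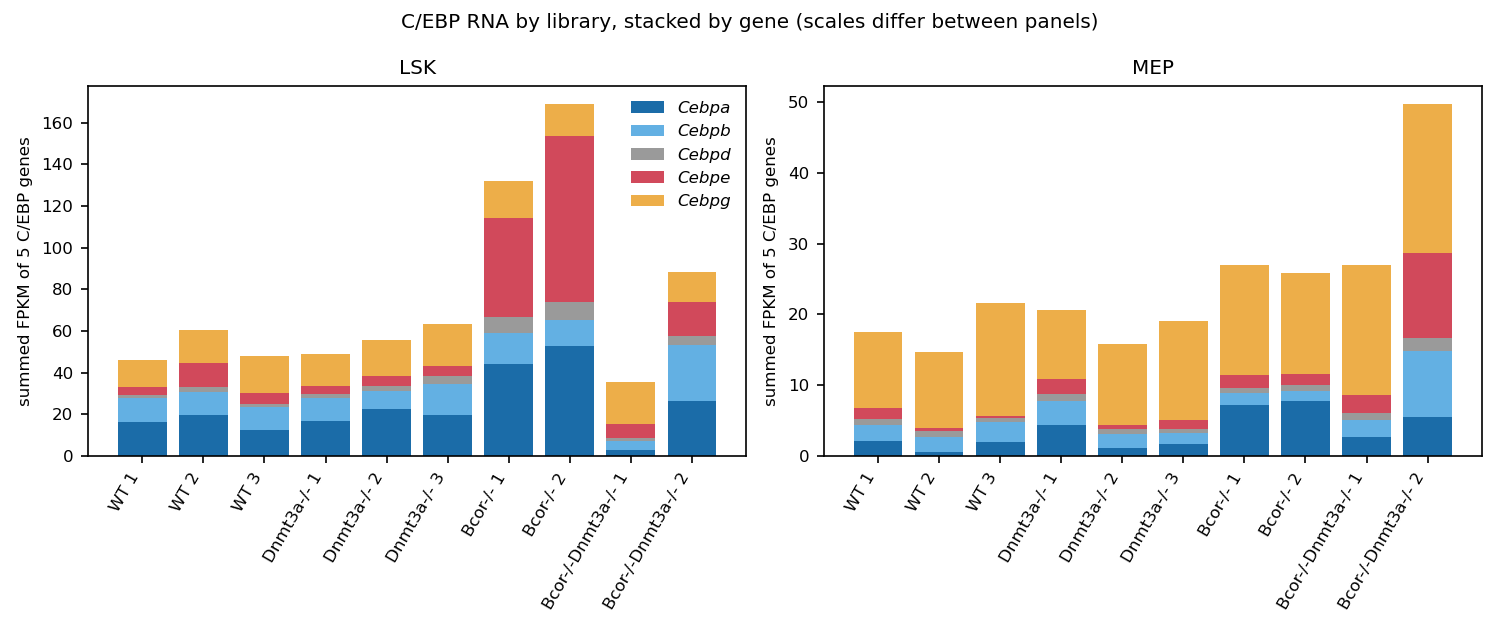
FPKM of the 5 C/EBP genes stacked to their sum in each library, for LSK cells and MEPs, with libraries grouped by genotype. The sum reaches 132.1 and 169.1 in Bcor-/- LSK cells, where Cebpe takes the largest share, and Cebpg takes the largest share of every WT MEP library.

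Lists of myeloid genes were counted beside the factors. All 5 primary granule genes were higher in Bcor-/- LSK cells, each with an adjusted p under 0.05. Among them, Mpo, Elane, Prtn3 and Ctsg encode the peroxidase and proteases of the promyelocyte. The median log2 fold change of the 5 genes was 2.90 against -0.01 over all genes tested. Mpo was at 788, 1532 and 785 FPKM in WT and at 4710 and 8426 in Bcor-/- (log2 fold change 2.68, SE 0.56, adjusted p = 0.029), and Elane, the neutrophil elastase gene, had a log2 fold change of 3.46 (SE 0.70, adjusted p = 0.027). Ms4a3 (3.34), Prtn3 (2.90) and Ctsg (2.80) were the other 3. Of 13 late granule and neutrophil genes, 1 was higher and 1 lower. The higher one was Fcnb, at 21.7, 86.5 and 20.4 FPKM in WT and at 339.6 and 421.3 in Bcor-/- (log2 fold change 3.44), and the lower one was Retnlg (log2 fold change -1.48). Without WT replicate 2, 4 of the 13 were higher and 1 lower, without WT replicate 1 or without Bcor-/- replicate 1, 1 was higher and 3 were lower, and without Bcor-/- replicate 2, 1 was higher and none lower. Of 7 growth factor and Fc receptor genes, 3 were higher, namely Fcgr3 (log2 fold change 2.70), Cd14 (1.82) and Csf2ra (1.33). Of 15 monocyte and dendritic cell genes, 3 were higher, Ly6c2 (2.28), F13a1 (1.35) and Ly86 (1.28), none with an adjusted p under 0.05. That count was 5 without WT replicate 2, 1 without WT replicate 3 and 0 without WT replicate 1 or either Bcor-/- replicate. These genes, Fcnb and Retnlg were chosen after their values were seen. Among the 14 C/EBP relatives, partners and inhibitors, 1 was called, Runx1 (-0.59, likewise chosen), among the 11 Gfi1 cofactors and relatives none was, and among the 12 other interferon regulatory factors and Irf8 partners 2 were lower. Of the 14 relatives, 1 was lower and none higher without WT replicate 3, 1 was higher and none lower without WT replicate 2 or Bcor-/- replicate 1, and none was called without WT replicate 1 or Bcor-/- replicate 2. Of the 12 interferon regulatory factors and partners, none was lower without Bcor-/- replicate 2, 1 was without WT replicate 1, and 3 were without Bcor-/- replicate 1. Spi1, which encodes PU.1, had a log2 fold change of 0.55 (SE 0.12, adjusted p = 0.032), under the fold threshold. The summed LSK gate markers were at 884 and 600 FPKM in Bcor-/- against 1163 to 1371 in WT, and the erythroid markers at 228 and 319 against 80.4 to 171. The macrophage markers were at 299 and 234 against 33.9 to 296. The mast cell and basophil markers were at 63.2 and 108 FPKM against 114 to 255, with groups that did not overlap for 5 of the 6, and the T and NK cell markers at 19.4 and 11.7 against 26.7 to 29.0. The part of these cell types in the results above was not tested.

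The comparison of Bcor-/-Dnmt3a-/- with WT LSK cells asks what loss of both genes does. Here 1 of the 7 genes was called, Irf8, which was higher, and the 4 genes called in Bcor-/- cells did not pass. Over all genes tested, 28.3% were called, 15.0% higher and 13.3% lower, and 23.7% had an adjusted p under 0.05 with that fold. Groups that did not overlap were found for Gfi1 among the 7 genes and for 49.6% of all genes.

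Irf8 was at 50.8 FPKM in Bcor-/-Dnmt3a-/- replicate 1, within the WT range, and at 380.4 in replicate 2, which was 8.51 times the WT mean. Its log2 fold change was 1.67 (SE 0.65, 95% CI 0.19 to 3.15, unadjusted p = 0.031, adjusted p = 0.087), and without single libraries it ran from 0.23 to 3.11. The Cebpa libraries lay on either side of WT, at 3.09 FPKM in replicate 1, below every WT library, and at 26.4 in replicate 2, above every WT library. The Cebpb libraries did too, at 4.15 and 26.8 FPKM against 10.7 to 11.9 in WT. For Cebpa and Cebpb the group means of 14.8 ± 16.5 and 15.5 ± 16.0 FPKM (SD, n = 2) therefore describe neither library. Cebpe was at 6.35 and 16.2 FPKM and Cebpd at 1.54 and 4.38, each with replicate 1 within the WT range and replicate 2 above it. Gfi1 was at 26.7 and 27.5 FPKM, a spread of 0.550 (SD), just above the highest WT library at 26.3, with a log2 fold change of 0.30 (SE 0.16, adjusted p = 0.19). Cebpg was at 20.4 and 14.5 FPKM, 1 library above the WT range and 1 within it. With a single double knockout library in the fit, which is then assumed to vary like the other genotypes, the calls turned. Without replicate 1, 5 of the 7 genes were called higher, Irf8 (log2 fold change 3.11), Cebpe (1.23), Cebpb (1.19), Cebpd (0.99) and Cebpa (0.71), and without replicate 2, Cebpa (-2.04) and Cebpb (-1.24) were called lower. Without WT replicate 2, Irf8 (1.93) and Cebpe (1.02) were called, and without WT replicate 1 or WT replicate 3 none was.

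The C/EBP sum was 35.5 and 88.3 FPKM in the Bcor-/-Dnmt3a-/- LSK libraries. Cebpg made up 57.4% of it in replicate 1 and 16.4% in replicate 2, and Cebpa 8.70% and 29.96%. The Cebpe shares, 17.9% and 18.3%, were close to each other and within the WT range.

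**Figure D3:**
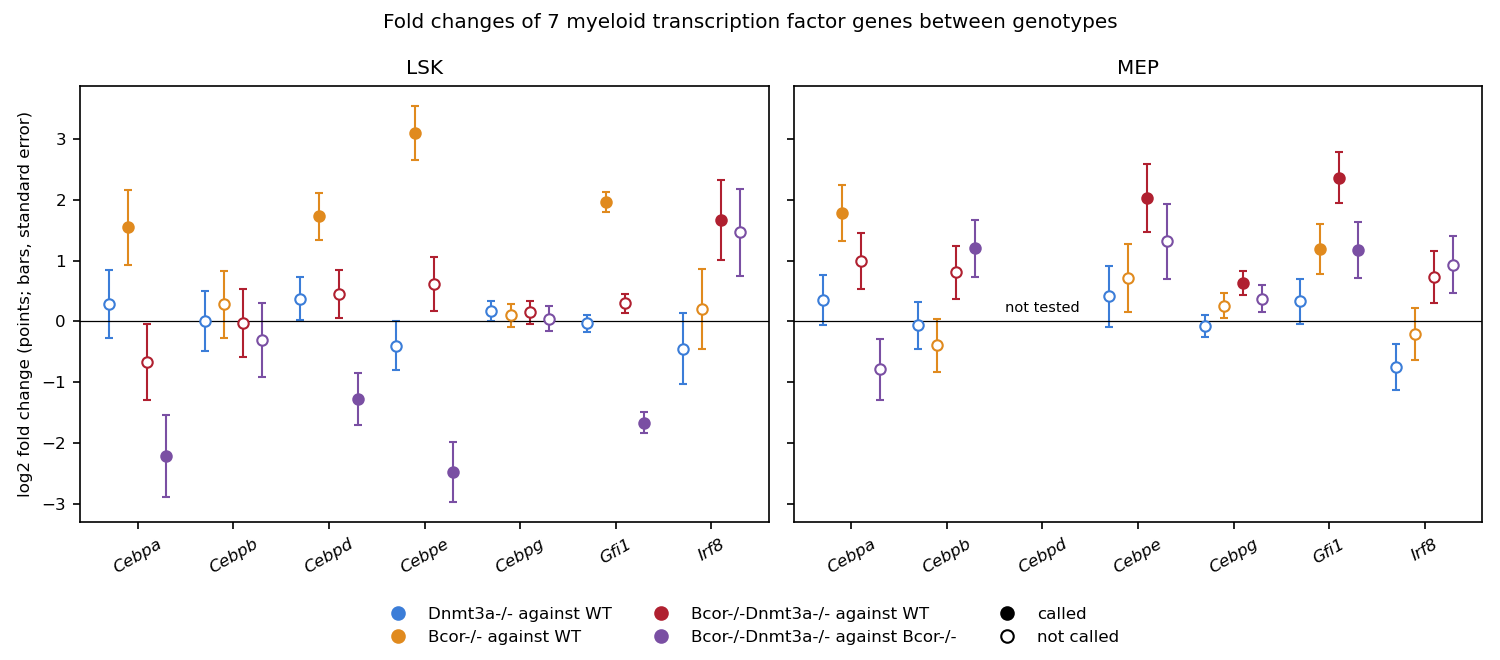
Log2 fold changes of the 7 genes on the log2(FPKM + 1) scale with their standard errors as bars, from limma, in LSK cells and MEPs; colours are the 4 comparisons and filled points are called genes. In LSK cells Cebpa, Cebpd, Cebpe and Gfi1 are called higher in Bcor-/- than in WT and lower in Bcor-/-Dnmt3a-/- than in Bcor-/-, and Irf8 is the only gene called in Bcor-/-Dnmt3a-/- against WT.

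The double and the single knockout were then compared directly. Relative to Bcor-/-, the Bcor-/-Dnmt3a-/- LSK cells had less Cebpe (log2 fold change -2.48, SE 0.49, adjusted p = 0.0061), Cebpa (-2.22, SE 0.68, adjusted p = 0.037), Gfi1 (-1.67, SE 0.17, adjusted p = 0.00036) and Cebpd (-1.28, SE 0.42, adjusted p = 0.049). For each of these 4 genes both double knockout libraries lay below both Bcor-/- libraries. The size depended on the double knockout library: without replicate 1 and without replicate 2, Cebpa was at -0.84 and -3.59, Cebpd at -0.74 (not called) and -1.82, and Cebpe at -1.87 and -3.09. Cebpd was also not called without Bcor-/- replicate 2 (-1.19), and Gfi1 stayed between -1.80 and -1.54 without single libraries. Cebpb (-0.31) and Cebpg (0.05) did not pass, and Irf8 had a log2 fold change of 1.47 (SE 0.72, 95% CI -0.15 to 3.09, adjusted p = 0.15), with replicate 1 at 50.8 FPKM between the Bcor-/- libraries. Called lower were thus 4 of 7 genes, against 14.8% lower, 15.8% higher and 30.6% in either direction over all genes, 25.2% by adjusted p. Groups that did not overlap were found for 4 of the 7 genes and for 59.3% of all genes. These comparisons share libraries with those against WT. The smallest p of a two-sided exact permutation test is 0.333 here, with 2 libraries in each group.

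The primary granule genes were counted in the same comparisons. In Bcor-/-Dnmt3a-/- LSK cells Mpo was at 221 and 891 FPKM and Elane at 153.7 and 703, and none of the 5 genes was called against WT, where their median log2 fold change was -0.73. That median was 0.16 without Bcor-/-Dnmt3a-/- replicate 1, with none called, and -1.62 without Bcor-/-Dnmt3a-/- replicate 2, where 3 of them were lower than in WT. Against Bcor-/-, all 5 were lower, with a median of -3.71 and an adjusted p under 0.05 for each. Of the 13 late granule genes, 6 were higher than in WT and none lower, with a median of 1.26, but 2 had an adjusted p under 0.05 and 4 had groups that did not overlap. Their summed 8388 and 7025 FPKM lay below the 10546 of WT replicate 2, and 12 of 13 were higher without that library, against 2 without WT replicate 1, WT replicate 3 or Bcor-/-Dnmt3a-/- replicate 1, and 3 without Bcor-/-Dnmt3a-/- replicate 2. Among the 6 were Chil3 (log2 fold change 1.74, SE 0.76, adjusted p = 0.12), Mmp9 (1.67, SE 0.53, adjusted p = 0.042) and Lcn2 (1.63, SE 0.55, adjusted p = 0.055). Of the 15 monocyte and dendritic cell genes, Tlr9 passed the filter on low values only through the double knockout, at 15.9 FPKM against 0.702 over the other libraries. Of the other 14, 8 were higher and none lower, with a median of 1.80. These included Ly86 (3.41, SE 0.55, adjusted p = 0.0019) and the invariant chain gene Cd74 (2.92, SE 0.54, adjusted p = 0.0038).

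Among the relatives of Irf8, Irf4 was at 1.95, 5.04 and 2.25 FPKM in WT LSK cells and at 29.6 and 130.9 in Bcor-/-Dnmt3a-/-. Both double knockout libraries were above every WT library, and the log2 fold change of Irf4, a factor of lymphoid and dendritic cells, was 4.04 (SE 0.64, adjusted p = 0.0018). The interferon response factor Irf7 (1.97, adjusted p = 0.0006) and Irf5 (1.72, adjusted p = 6.9e-05) were higher too, and 4 of the 11 list members that reached the filter outside the double knockout rose. Batf3 passed it only through the double knockout libraries. Among the 14 C/EBP relatives, partners and inhibitors, 2 were higher and 1 lower. These counts turned with the double knockout library, to 7 higher and 3 lower without Bcor-/-Dnmt3a-/- replicate 1 and to 2 higher and 4 lower without Bcor-/-Dnmt3a-/- replicate 2, and without WT replicate 1 none was lower. The higher ones were Trib2 (1.73, SE 0.40, adjusted p = 0.011) and Trib3 (1.24, SE 0.28, adjusted p = 0.0099), of which Trib2 encodes a pseudokinase that promotes degradation of C/EBPα. The lower one was the AP-1 gene Fos (-1.41, SE 0.51, adjusted p = 0.07). Trib1, a relative with the same activity, was at 8.33 and 64.2 FPKM against 13.1 to 23.9 in WT, on either side of the WT range as Cebpa was. Ddit3, which encodes the C/EBP inhibitor CHOP, was at 25.7 and 83.3 FPKM against 19.3 to 31.6 in WT and did not pass (0.81, SE 0.42). Of 11 Gfi1 cofactors and relatives, 1 was higher, the paralog Gfi1b (0.64, SE 0.27, adjusted p = 0.11), and 2 were lower, Egr1 (-2.97, SE 1.07, adjusted p = 0.067) and Hdac2 (-0.64, SE 0.18, adjusted p = 0.029). None of the 11 was higher without WT replicate 1 or WT replicate 2, 2 were without Bcor-/-Dnmt3a-/- replicate 2, and 1 was lower without WT replicate 1 or Bcor-/-Dnmt3a-/- replicate 1. Of the 7 receptor genes, Cd14 (2.10), Fcgr3 (1.35) and Csf2rb (0.90) were higher, and Csf3r, the G-CSF receptor gene, was lower, at 12.4 and 15.8 FPKM against 57.2 to 69.2 in WT (-2.05, SE 0.16, adjusted p = 6.2e-05). Of the 7, 1 was higher without WT replicate 3, 2 without WT replicate 1 and 5 without WT replicate 2, and 1 was lower in each of these fits. Csf1r, the M-CSF receptor gene, was at 135.9 and 15.6 FPKM against 9.34 to 26.2 and did not pass. Spi1 was at 72.1 and 72.3 FPKM against 79.5 to 83.5 in WT.

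Markers of other cells moved with the double knockout in LSK cells. The summed erythroid markers were at 5518 and 20681 FPKM against 80.4 to 171 in WT, the B cell markers at 3419 and 1122 against 42.4 to 100, and the T and NK cell markers at 83.5 and 239 against 26.7 to 29.0. The megakaryocyte markers were lower, at 17.5 and 51.8 FPKM against 101 to 121, with 4 of 7 called lower. The mast cell and basophil markers were at 20.4 and 51.0 against 114 to 255, with 5 of 6 called lower and 1 higher, all 6 also by adjusted p. The macrophage markers were at 1515 FPKM in replicate 1, where Csf1r was also high, and at 45.6 in replicate 2, within the WT range. The summed LSK gate markers were at 183 and 381 FPKM against 1163 to 1371. The part of these cell types in the values of the 7 genes was not tested.

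In MEPs, where 6 of the 7 genes passed the filter on low values (Cebpd, at 0.568 to 1.78 FPKM, did not), the Bcor-/-Dnmt3a-/- cells had more Gfi1, Cebpe and Cebpg than WT. Thus 3 of 6 genes were called higher, each with an adjusted p under 0.05, while 30.9% of the 10933 genes tested were called, 18.5% higher and 12.4% lower, and 25.2% by adjusted p. Groups that did not overlap were found for 5 of the 6 genes and for 50.5% of all genes.

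Gfi1 was at 1.58, 0.981 and 1.24 FPKM in WT MEPs and at 17.3 and 6.41 in Bcor-/-Dnmt3a-/-. Both lay above every WT library, by 13.6 and 5.06 times the WT mean, and the log2 fold change was 2.37 (SE 0.42, adjusted p = 0.0040). Cebpe was at 1.55, 0.403 and 0.276 FPKM in WT and at 2.51 and 12.1 in the double knockout (log2 fold change 2.03, SE 0.56, adjusted p = 0.025), so that replicate 1 was the higher library for Gfi1 and replicate 2 for Cebpe. Cebpg was at 10.7, 10.8 and 16.0 FPKM in WT and at 18.4 and 21.0 (log2 fold change 0.64, SE 0.20, adjusted p = 0.041), a 1.55-fold change close to the threshold. That call was lost without WT replicate 1 (0.54), WT replicate 2 (0.55) or Bcor-/-Dnmt3a-/- replicate 2 (0.54), and with centring or quantile scaling of the libraries. Cebpa, at 2.68 and 5.54 FPKM, lay above the WT range of 0.580 to 2.09 without passing (log2 fold change 1.0, SE 0.46, adjusted p = 0.13). Irf8, at 32.2 and 46.1 FPKM, lay above the WT range of 16.2 to 27.5 (0.73, SE 0.43) and did not pass. Cebpb was at 2.39 FPKM in replicate 1, within the WT range, and at 9.30 in replicate 2. Without Bcor-/-Dnmt3a-/- replicate 1, 5 of the 6 genes were called higher, the exception being Irf8, and without replicate 2, Gfi1 (3.02) and Cebpe (1.08) were.

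Of the 13 late granule genes, Itgb2l, Mmp8 and Mmp9 passed the filter on low values only through the double knockout, where they were at 17.0, 27.2 and 25.7 FPKM against 0.400, 0.662 and 0.732 over the other MEP libraries. The other 10 were higher in Bcor-/-Dnmt3a-/- MEPs, each with an adjusted p under 0.05 and with a median log2 fold change of 4.51 against 0.02 over all genes tested. Chil3 (5.25, SE 0.68, adjusted p = 0.0012), Lcn2 (4.87, SE 0.59, adjusted p = 0.00095) and Ngp (4.80, SE 0.52, adjusted p = 0.00066) were among them. Of the 5 primary granule genes 1 was called, Ms4a3 (1.59, SE 0.66, adjusted p = 0.096), and without WT replicate 1, 3 were. None was called without WT replicate 2, WT replicate 3 or Bcor-/-Dnmt3a-/- replicate 2, and 2 were without Bcor-/-Dnmt3a-/- replicate 1. Of 14 monocyte and dendritic cell genes Fcgr1 and Siglech passed the filter only through the double knockout. Of the other 12, 9 were higher and none lower (median 1.94), with Cybb, which encodes a subunit of the phagocyte oxidase, at 4.39 (SE 0.36, adjusted p = 0.00038), F13a1 at 3.50 (SE 0.73, adjusted p = 0.0082) and Ctss at 3.32 (SE 0.46, adjusted p = 0.0016). Of 7 receptor genes Cd14 passed the filter only through the double knockout, at 7.12 FPKM against 0.153 over the other libraries. Of the other 6, 5 were higher, including Csf1r (3.82, SE 0.71, adjusted p = 0.0050) and Fcgr3 (3.79, SE 0.54, adjusted p = 0.0018). Of 11 interferon regulatory factors and partners 7 were higher and none lower, with Irf4 at 3.08 (SE 0.37, adjusted p = 0.00093), Irf5 at 2.24 and Irf7 at 2.01. Mpo (0.94, SE 0.94), Elane (1.87, SE 0.83) and Csf3r (1.44, SE 0.66) did not pass in these MEPs.

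Among the 14 C/EBP relatives, Trib3 passed the filter only through the double knockout, at 14.7 FPKM against 0.522 over the other libraries. Of the other 13, 3 were higher and 1 lower in these MEPs. Of all 14, Trib3 included, 4 were higher and 1 lower, against 7 and 2 without Bcor-/-Dnmt3a-/- replicate 1 and 6 and 2 without Bcor-/-Dnmt3a-/- replicate 2. Trib1 (2.23, SE 0.43, adjusted p = 0.0061) and Spi1 (1.79, SE 0.55, adjusted p = 0.038) were among the higher genes. Trib2 was lower, at 7.10 and 5.34 FPKM against 20.9 to 24.9 in WT (-1.76, SE 0.15, adjusted p = 0.00038), whereas in LSK cells it was at 6.46 and 21.2 against 1.99 to 3.48. Of 10 Gfi1 cofactors and relatives Egr2 and Nab2 passed the filter only through the double knockout, Nab2 at 3.90 FPKM against 0.962. Of the other 8 none was higher and 2 were lower, Egr1 (-2.05) and Gfi1b (-0.94, SE 0.33, adjusted p = 0.060). Over the whole list, 1 was lower without any 1 of the WT libraries or without Bcor-/-Dnmt3a-/- replicate 1, and 3 were without Bcor-/-Dnmt3a-/- replicate 2. Gfi1b, the paralog that megakaryocytic and erythroid cells use, was at 49.8 and 129 FPKM against 137 to 191 in WT. The late granule markers summed to 7135 and 16669.7 FPKM in these libraries against 312 to 578 in WT. The macrophage markers summed to 806 and 8.59 against 2.10 to 3.66, the B cell markers to 2795 and 122 against 30.4 to 174, and the erythroid markers to 3825 and 67432 against 1279 to 1912. The T and NK cell markers summed to 95.2 and 113 against 11.8 to 18.8, and the megakaryocyte markers to 24.7 and 77.1 against 97.3 to 351. The part of these cells in the MEP values of the 7 genes was not tested.

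**Figure D4:**
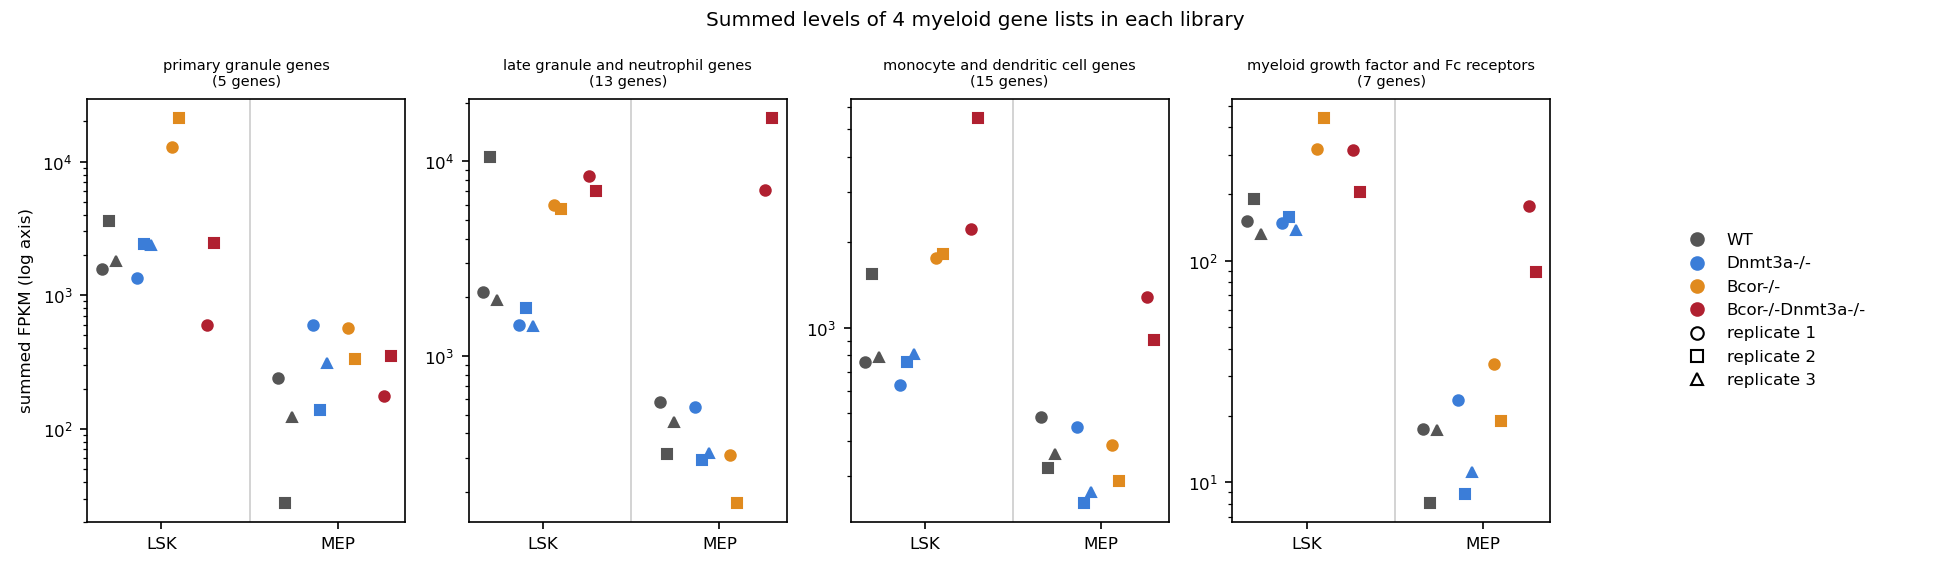
Summed FPKM of 4 lists of myeloid genes in every library on log axes whose ranges differ, for LSK cells and MEPs; colours are genotypes and symbols are replicates. The primary granule sum is highest in the 2 Bcor-/- LSK libraries (12870.3 and 21154 FPKM), and the late granule sum of the 2 Bcor-/-Dnmt3a-/- MEP libraries (7135 and 16669.7) lies above all other MEP libraries.

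In Bcor-/- MEPs Cebpa and Gfi1 were called higher. Cebpa was at 2.09, 0.580 and 2.02 FPKM in WT and at 7.24 and 7.73 in Bcor-/-, with no overlap (log2 fold change 1.79, SE 0.46, unadjusted p = 0.0041, adjusted p = 0.41). Gfi1 was at 5.10 and 3.35 FPKM against 0.981 to 1.58 in WT, also with no overlap (1.19, SE 0.42, unadjusted p = 0.020, adjusted p = 0.69). Without single libraries Cebpa ran from 1.47 to 1.96 and Gfi1 from 0.95 to 1.44, and not in every such fit were both called. Neither passed after adjustment, in a comparison where 2.76% of all genes were called, 1.23% higher and 1.53% lower, and 0.0640% by adjusted p. Cebpe, at 1.89 and 1.56 FPKM, lay just above the WT maximum of 1.55, and Cebpb, at 1.71 and 1.43, below the WT minimum of 2.13, without passing. Groups that did not overlap were found for 4 of the 6 genes and for 30.8% of all genes. The Cebpa share of the C/EBP sum was 26.8% and 29.9% in Bcor-/- MEPs against 12.0%, 3.94% and 9.35% in WT. Of the 5 primary granule genes 4 were higher, none with an adjusted p under 0.05 (median 2.02), with Elane at 2.54 (SE 0.83, adjusted p = 0.60). That count ran from 0 without WT replicate 2 or Bcor-/- replicate 1, over 1 without Bcor-/- replicate 2 and 2 without WT replicate 3, to 5 without WT replicate 1. Of the 13 late granule genes 4 were lower and none higher, while 2 were lower without WT replicate 3 and 1 without WT replicate 1 or Bcor-/- replicate 2.

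The Bcor-/-Dnmt3a-/- and Bcor-/- MEPs differed in Cebpb (1.20, SE 0.47, unadjusted p = 0.033, adjusted p = 0.095) and Gfi1 (1.17, SE 0.46, unadjusted p = 0.031, adjusted p = 0.093), both higher in the double knockout. Each rested on a different double knockout library. Cebpb was at 2.01 without Bcor-/-Dnmt3a-/- replicate 1 and at 0.40, not called, without Bcor-/-Dnmt3a-/- replicate 2, and Gfi1 was at 0.52, not called, and 1.83. Without Bcor-/- replicate 2 neither was called, and without Bcor-/- replicate 1 Cebpb was not. Of 6 genes 2 were called by that rule and none by adjusted p, against 27.9% in either direction, 16.5% higher, 11.3% lower and 20.3% by adjusted p over all genes. All 6 genes had groups that did not overlap, as did 59.5% of all genes. Cebpa was the only one of the 6 whose double knockout libraries lay below both Bcor-/- libraries (log2 fold change -0.79).

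In Dnmt3a-/- cells no gene of the 7 was called by limma in LSK cells and none of the 6 tested in MEPs, and 0 had an unadjusted p under 0.05 in either, where 0.443% and 0.412% of all genes were called. The LSK log2 fold changes ran from -0.45 for Irf8 to 0.38 for Cebpd. Irf8 was at 30.1, 33.6 and 30.6 FPKM in Dnmt3a-/- LSK cells, below every WT library (exact permutation p = 0.1, the smallest that 3 against 3 can give, two-sided), and 9.61% of all genes had groups that did not overlap. Lists of other myeloid genes were counted in these LSK cells too. Of the 14 C/EBP relatives, partners and inhibitors 1 was called higher, and none was without any single library of the comparison. Of the 12 other interferon regulatory factors and Irf8 partners 1 was called lower, and 2 were without WT replicate 3. Neither list held a call by adjusted p. Of the 13 late granule genes 5 were called lower, none by adjusted p, and all 13 had a negative log2 fold change, with a median of -1.19. WT replicate 2, which stood apart in these genes, bore on the size, and without it 3 were lower with a median of -0.45. That count ran from 2 without Dnmt3a-/- replicate 2 or replicate 3 to 8 without WT replicate 1 and 9 without WT replicate 3. None of the 15 monocyte and dendritic cell genes was called, and all 15 log2 fold changes were negative, with a median of -0.56, which was -0.19 without WT replicate 2. The macrophage markers summed to 17.3, 47.3 and 89.2 FPKM against 114, 296 and 33.9 in WT, with none of the 7 called and all 7 log2 fold changes negative (median -1.31). The part of these cells in the Irf8 values was not tested. In MEPs Irf8 was at 23.1, 9.49 and 10.4 FPKM against 16.2 to 27.5 in WT, with overlap (log2 fold change -0.75, SE 0.38), and none of the 6 genes had groups apart, against 10.4% of all genes. Irf8 was called lower in MEPs without WT replicate 2 or without Dnmt3a-/- replicate 1. Of the 5 primary granule genes 2 were called higher in these MEPs, none by adjusted p, against 5 without WT replicate 1, 4 without Dnmt3a-/- replicate 2, 1 without Dnmt3a-/- replicate 3 and none without any other single library of the comparison.

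Since the LSK and MEP libraries of a sample came from the same mice, the difference between a genotype's effects in the 2 cell types was tested on the LSK minus MEP difference of log2(FPKM + 1) within each mouse. For the double knockout, Gfi1 and Cebpa were called, among 28.0% of the 10773 genes tested in both cell types. The Gfi1 difference was 3.05, 3.78 and 3.18 in WT mice and 0.60 and 1.94 in Bcor-/-Dnmt3a-/- mice, a change of the log2 difference by -2.07 (SE 0.65, unadjusted p = 0.010, adjusted p = 0.051). It was -1.40 and not called without Bcor-/-Dnmt3a-/- replicate 1 and -2.74 without replicate 2. The Cebpa difference was 2.47, 3.72 and 2.15 in WT and 0.15 and 2.07 in the double knockout (-1.67, SE 0.72, unadjusted p = 0.045, adjusted p = 0.13). This was -0.71 and not called without Bcor-/-Dnmt3a-/- replicate 1, -1.20 and not called without WT replicate 2, and -2.63 without Bcor-/-Dnmt3a-/- replicate 2, and the call was also lost without WT replicate 1, Dnmt3a-/- replicate 3 or either Bcor-/- replicate. For both genes the LSK minus MEP difference was thus smaller in each double knockout mouse than in any WT mouse. For Cebpa this was narrow, at 2.07 against 2.15. How close the levels of the 2 gates were depends on the scaling of the separate tables and was not tested. Cebpe (-1.41, SE 0.64), Cebpb (-0.83, SE 0.40) and Irf8 (0.94, SE 0.74) did not pass, and Cebpg (-0.49, SE 0.20, unadjusted p = 0.036) was under the fold threshold.

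For Bcor-/-, the same test, which was added after the data were seen, called Cebpe among 10.8% of all genes. Its LSK minus MEP difference was 0.95, 3.17 and 2.29 in WT mice and 4.08 and 4.98 in Bcor-/- mice, a change of 2.39 (SE 0.64, unadjusted p = 0.0043, adjusted p = 0.12). With a pseudocount of 0.1 in place of 1 the change was 1.87 and was not called. Cebpe was at 0.276 to 1.89 FPKM in the WT and Bcor-/- MEPs. Gfi1 (0.77, SE 0.65) and Cebpa (-0.24) did not pass, so that a different size of the Bcor-/- effect in LSK cells and MEPs was not shown for them.

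**Figure D5:**
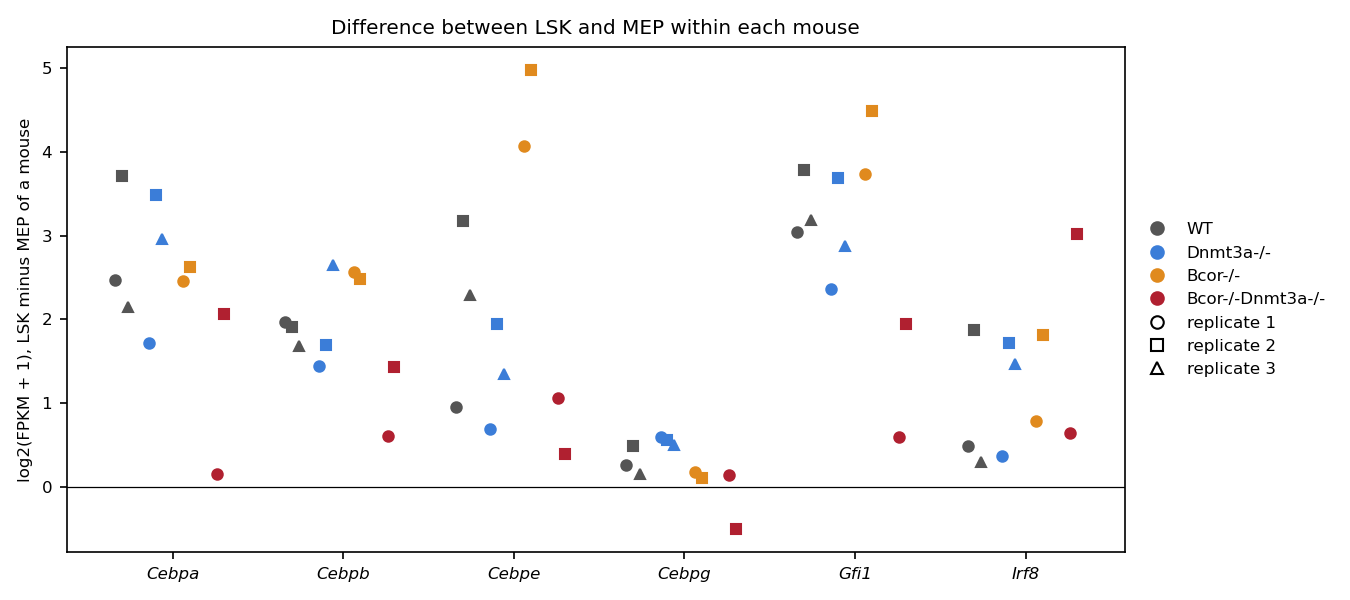
LSK minus MEP difference of log2(FPKM + 1) within each mouse for the 6 genes tested in both cell types; colours are genotypes and symbols are replicates. The Gfi1 and Cebpa points of Bcor-/-Dnmt3a-/- mice lie below all WT points, and the Cebpe points of Bcor-/- mice lie above them.

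Across the 10 LSK libraries the log2 values of Cebpe and Gfi1 correlated at 0.96, those of Cebpd and Cebpe at 0.90 and those of Cebpa and Cebpd at 0.77, whereas Irf8 correlated with Cebpe at 0.34 and with Gfi1 at 0.14. In MEPs Cebpe and Gfi1 correlated at 0.66. The libraries fall into genotypes, which these coefficients share, so that they are given as descriptions. Over all 20 libraries, centred within each cell type, the genes most like Cebpe were Ltb4r1 (r = 0.96), Fcnb (0.96) and Gsr (0.95), those most like Gfi1 were Irak3 (0.94), Tcn2 (0.93) and Csf2ra (0.93), and those most like Cebpa were Chdh (0.91), Mboat7 (0.90) and Rab44 (0.90). Irf8 was most like Kmo (0.95), Stx7 (0.91) and Pmaip1 (0.90), with 0.80, 0.74 and 0.60 without the Bcor-/-Dnmt3a-/- libraries. The gene most like Cebpb, Sertad1 (0.86), had a coefficient of 0.17 without these libraries, and the gene most like Cebpg, Tug1 (0.88), one of 0.81.

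In the GENCODE annotation Cebpa, Cebpb, Cebpd, Cebpg and Gfi1 overlap genes on the opposite strand and Cebpg and Irf8 overlap genes on their own strand, and whether reads were counted by strand is not given in the sources used here. Part of their FPKM may therefore come from these neighbours. Cebpe overlaps no annotated gene.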

How the data were processed

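PolyA RNA of sorted LSK cells and MEPs was sequenced on Illumina machines. The authors deposited gene-level FPKM, 1 table per cell type; the submitters' processing notes name STAR 2.5.1b, SAMtools 1.9, Cufflinks 2.2.1 and mm9, without their roles. Libraries were already scaled to each other (median log2 ratios -0.02 to 0.01) by a method not given in the sources used here. FPKM are not counts, so no count test was run.

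Genes whose mean reached 1 FPKM in a cell type (10 libraries each; 11952 in LSK cells, 10933 in MEPs) were fitted on log2(FPKM + 1) with limma 3.58.1 (trend, R 4.3.3), 1 mean per genotype and a shared variance. The script was tested on simulated data. A call needs an unadjusted p under 0.05 and a fold over 1.5. Benjamini-Hochberg adjusted p cover all genes tested. The pseudocount of 1 understates changes of low genes. Within-mouse LSK minus MEP differences were fitted likewise. Alternatives changed the pseudocount, the filter, the scaling, the variance, the fold, the libraries and the replicate block.

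The 7 genes and all lists were chosen with earlier results of these data known. All 7 genes were named; from each list, called genes with the largest change against WT and key genes fixed by name were named, and the 3 genes most correlated with a member. The values of 1 list gene are not reported here. After the values were seen, list counts were also made without genes that passed the filter only through the compared genotype and without single libraries. Promoter windows came from RefSeq (GRCm38.p6) and gene overlaps from GENCODE vM21; no coordinates were converted. Plots: Python 3.11.15, matplotlib 3.10.9.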

Additional observations from a re-analysis of the deposited data

Results flagged for a closer look

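The effect of losing both Bcor and Dnmt3a differed between LSK cells and MEPs of the same mice for Gfi1, by -2.07 on the log2 scale (adjusted p = 0.051), and for Cebpa, by -1.67 (adjusted p = 0.13). The effect of losing Bcor alone differed for Cebpe, by 2.39 (adjusted p = 0.12). These stood out because the difference between the cell types was itself tested and passed the unadjusted threshold with a fold over 1.5. Without single libraries these values ran from -2.74 to -1.40 for Gfi1, -2.63 to -0.71 for Cebpa and 1.80 to 2.91 for Cebpe, and the Gfi1 call was lost without Bcor-/-Dnmt3a-/- replicate 1, as the Cebpa call was there and without 5 other libraries. With a pseudocount of 0.1 the Cebpe value was 1.87 and its call was lost. None of the 3 had an adjusted p under 0.05.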

How the results depend on the processing

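Counts of the 7 genes that were called (6 in MEPs) depended on the following choices. For Bcor-/-Dnmt3a-/- against WT LSK cells, the count of 1 became 0 with adjusted p, with no filter on low values and with only the compared genotypes fitted, and ran from 0 to 5 without single replicates. For Bcor-/- against WT and for Bcor-/-Dnmt3a-/- against Bcor-/- LSK cells, the count of 4 stayed within 3 to 4 and 3 to 5 over all settings run. For Bcor-/-Dnmt3a-/- against WT MEPs, the count of 3 became 1 with a minimum of 5 FPKM and 1 with a separate variance per genotype, and ran from 2 to 5 without single replicates. With centring or quantile scaling of the libraries, Cebpg lost its call there. For Bcor-/- against WT MEPs, the count of 2 became 0 with adjusted p and with a minimum of 5 FPKM, and ran from 1 to 2 without single replicates. For Dnmt3a-/- against WT it stayed 0 in LSK cells and ran from 0 to 1 in MEPs without single replicates. For Bcor-/-Dnmt3a-/- against Bcor-/- MEPs, the count of 2 became 0 with adjusted p, no filter, a minimum of 5 FPKM, only the compared genotypes or a separate variance, 1 with a pseudocount of 0.1, with centring or with the replicate block, and 0 to 3 without single replicates. For the double knockout difference between cell types, the count of 2 became 0 with adjusted p, a minimum of 5 FPKM or a separate variance, 1 with no filter, quantile scaling, centring, only the compared genotypes or no replicate block, and 1 to 3 without single replicates. For that of Bcor-/-, the count of 1 became 0 with adjusted p, a pseudocount of 0.1 or a minimum of 5 FPKM, and 2 with no filter or only the compared genotypes. The minimum of 5 FPKM took Cebpa, Cebpb, Cebpe and Gfi1 out of the test in MEPs and in the differences between cell types. The counts of 1 and 0 at that minimum are therefore not lost calls among all 6 genes. In LSK cells that minimum took out Cebpd, which was among the 4 genes called there. The LSK counts at that minimum likewise leave Cebpd untested. The cause of the other changes was not tested.

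Directions turned for genes that were not called. Cebpb in Bcor-/-Dnmt3a-/- against WT LSK cells became 0.058 with the replicate block, Cebpg against Bcor-/- became -0.039 with quantile scaling and -0.048 with centring, and Cebpb in Dnmt3a-/- MEPs became 0.043 with quantile scaling. Without single replicates the log2 fold changes in Bcor-/-Dnmt3a-/- against WT LSK cells ran from -2.04 to 0.71 for Cebpa, -1.24 to 1.19 for Cebpb, -0.091 to 0.99 for Cebpd and -0.084 to 0.38 for Cebpg, and against Bcor-/- from -1.52 to 0.91 for Cebpb and -0.19 to 0.28 for Cebpg. Those of Cebpg in Bcor-/- LSK cells ran from -0.0081 to 0.20. In Dnmt3a-/- LSK cells they ran from -0.17 to 0.18 for Cebpb and -0.13 to 0.099 for Gfi1. In MEPs they ran from -0.68 to 0.27 for Irf8 in Bcor-/-, and in Dnmt3a-/- from -0.050 to 0.63 for Cebpa, -0.29 to 0.11 for Cebpb and -0.20 to 0.10 for Cebpg. The differences between cell types ran from -0.24 to 2.13 for Irf8 in the double knockout, and for Bcor-/- from -0.56 to 0.23 for Cebpa and -0.10 to 0.92 for Irf8.

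Same-numbered samples of different genotypes did not deviate together in every pair (correlations -0.19 to 0.34). These deviations were taken from means of few libraries and are tied to one another within a genotype. They therefore cannot settle whether the replicate number marks a pairing between genotypes, and the main fits used none. In Bcor-/-Dnmt3a-/- against WT MEPs, the median over all genes tested shifted by -0.157 with centring and by -0.185 with quantile scaling, and Cebpg was then at 0.48 and 0.49 and not called.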
